A study of Mus musculus with 10 samples.

Results

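This report concerns 38 genes of the cell division cycle in mouse back skin, 24 that act in mitosis and 14 that act in DNA replication. They were taken by gene symbol from a list of well-known division genes. Of the 38 genes, 36 had a probe set that named them (23 mitosis genes and 13 replication genes) among the 19505 genes named on the arrays. Ccnb1 and Mcm7 were not among the named probe sets and are not analysed here. All 36 measured genes passed the filter on low levels, each through 1 probe set. The study profiled whole back skin of C57BL/6J mice, 9 weeks old at the start, on 10 arrays. In 8 of them a silicone expander had been implanted under the skin. In the 4 expanded samples the expander was enlarged step by step with PBS, and in the 4 nonexpanded samples it stayed unfilled. Each arm had 1 array on day 0, day 7, day 14 and day 21, counted from the end of the injections. The remaining arrays held skin of mice without surgery, 1 in telogen (hair follicles at rest) and 1 in anagen (hair follicles growing). Expanded and unfilled skin share the implantation and the foreign body. The labels do not say if the RNA of an array came from 1 mouse or from several, so p-values measure only the spread between these arrays, which lie on different days.

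A cell that divides first licenses its DNA for copying, by loading the MCM helicase with the help of Cdc6. It then copies the DNA under the control of E2F factors and cyclin E, with nucleotides supplied by ribonucleotide reductase and thymidylate synthase. Mitosis follows, driven by Cdk1 with cyclins A and B and by the Plk1 and Aurora kinases, and it ends when the anaphase-promoting complex destroys the cyclins and the cell is pinched apart. In skin most dividing cells lie in the basal layer of the epidermis and, in anagen, in the hair matrix at the base of the growing follicle, one of the fastest dividing tissues of the adult body.

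The values are the authors' log2 probe-set signals, so a difference of 1 stands for 2-fold on the deposited scale. On some array 586 probe sets exceeded 16, more than a 16-bit scanner can record on a log2 scale, so the scale may be stretched. Levels of different genes are not compared, since probe sets differ in brightness. Array medians over all probe sets ran from 6.27 to 6.45. The 23 background probe sets had a median of 5.46, and 9 of the 36 genes were under this on at least 1 array. For Cdc20 (5.36) and E2f1 (4.89) the mean over the 10 arrays was below it, so their differences lie close to background. Markers of skin were present on every array: Krt14 and Krt5 of the basal epidermis lay between 14.22 and 17.66, and Col1a1 of fibroblasts between 16.57 and 19.06. In bulk skin, fewer dividing cells and less RNA per dividing cell cannot be told apart. Among the 8 expander arrays, expanded day 7 stood apart in markers of hair matrix and hair shaft (mean 10.46, the other 7 from 4.81 to 7.25). Unfilled day 0, expanded day 7 and expanded day 14 stood apart in markers of stressed and wounded epidermis (means 12.28, 14.46 and 12.36, the other 5 from 7.61 to 8.92). Results are therefore also given by day.

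The widest difference in the mean level of these genes lay between the anagen and the telogen array. All 36 were higher in anagen than in telogen skin, and 33 were at least 2-fold higher, among them all 23 mitosis genes and 10 of the 13 replication genes. Over all 13653 genes tested, 23.5% were at least 2-fold higher in anagen and 20.4% at least 2-fold lower. The median log2 difference was 3.54 for mitosis genes, 2.00 for replication genes and -0.01 for all genes. In telogen 7 members lay under the background median, so the size of their difference, and their place in an order, is uncertain. With values under that median raised to it, the 23 mitosis genes and 9 replication genes were still at least 2-fold higher, with medians of 3.49 and 2.00, and E2f1, under it on both sides, had no difference left. Among genes above it in telogen, the spindle checkpoint kinase Bub1 (4.52) and Mki67 (4.45) had the widest differences of the mitosis genes. Under it in telogen were Ube2c, the ubiquitin-conjugating enzyme of the anaphase-promoting complex (5.45, or 4.94 with telogen raised), Plk1 (4.93, or 4.80) and Cdk1 (4.65, or 2.65). Among replication genes, Rrm2 (4.28) and Mcm2 (3.70) led. The 3 genes under 2-fold as deposited were Ccne2 (0.53), Cdc6 (0.80) and Tyms (0.83), all of replication. Anagen was the highest of the 10 arrays for 34 of the 36 genes, against 25.7% of all genes tested. The exceptions were Ccne2, highest in unfilled skin on day 14, and E2f1, highest in expanded skin on day 14. Each side is 1 array, so these differences have no replicate check. All 13 tested markers of hair matrix and hair shaft were higher in anagen too, with a median difference of 9.80, as were all 6 melanocyte markers (5.86). Of the markers of stressed and wounded epidermis, 7 of 8 were higher (2.18). Some other lists fell. All 12 skeletal muscle fibre markers were at least 2-fold lower in anagen (median -3.1), and all 7 endothelial markers were lower. Lower too were 7 of 10 basal epidermis markers (-1.25), 6 of 7 fibroblast markers (-1.19) and 6 of 9 macrophage markers (-1.4). The part of these cells in the difference was not tested.

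**Figure D1:**
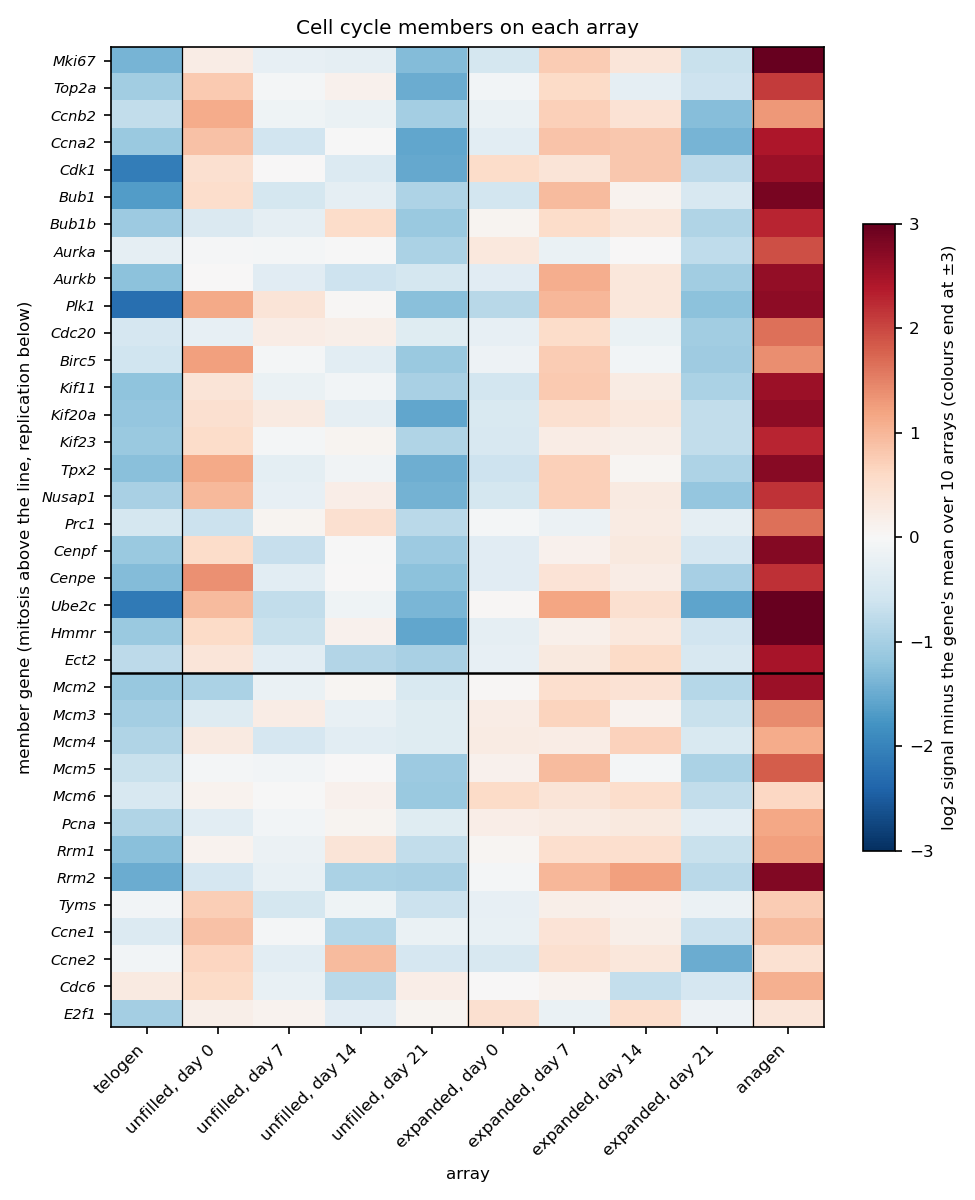
Each row is a gene and each column 1 of the 10 arrays. Colour gives the log2 signal minus the gene's mean over the 10 arrays, with colours ending at 3 on either side. Mitosis genes lie above the line and replication genes below it. The anagen column is the highest for 34 of the 36 genes, and the columns of telogen and of day 21 in both arms are mostly blue.

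Mitosis genes moved together across the arrays and replication genes less so. Pearson's r between pairs of mitosis genes had a median of 0.90 over the 10 arrays (253 pairs), and of 0.80 over the 8 expander arrays alone. Between pairs of replication genes the medians were 0.62 and 0.47. These are descriptions, since the same arrays enter every pair. Kif11 and Kif23 followed the mean of the other mitosis genes most closely (r = 0.99 for each over 10 arrays). Prc1, which bundles midzone microtubules, followed it least (0.78, and 0.28 over the 8 expander arrays). Cdc6 was the replication gene that followed its group least (0.39 and 0.03), with Ccne2 (0.48) and E2f1 (0.53) next over the 10 arrays. E2f1 was under the background median on all 10 arrays and Cdc6 on 4. Mcm2, Mcm3, Mcm4, Mcm5, Pcna, Rrm1 and Rrm2 followed the replication mean at 0.88 to 0.93 (0.62 to 0.88 over the 8 expander arrays).

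Because mitosis genes moved together, their promoters were compared with those of replication genes. Promoters were available for 30 of the 36 genes (RefSeq, GRCm38.p6, from 250 bases before to 50 after the first listed start). Promoters of mitosis genes are known to carry the cell cycle genes homology region (CHR), read by the DREAM and MYB-MuvB complexes, often beside CCAAT boxes bound by NF-Y. Replication genes are known for E2F sites. The letters searched on both strands were TTTGAA and TTCGAA for CHR, CCAAT for the CCAAT box, and TTTCCCGC, TTTCGCGC, TTTGCCGC and TTTGGCGC for E2F. Matches of E2F letters on opposite strands can overlap each other. CHR letters stood in 16 of 19 mitosis promoters (84.2%), 1 of 11 replication promoters (9.09%) and 15.0% of the 11001 promoters of genes tested. CCAAT letters stood in 17 of 19 (89.5%), 7 of 11 (63.6%) and 38.8%. All 16 mitosis promoters with CHR letters held CCAAT letters too, against 6.42% of promoters of genes tested for the pair. E2F letters stood in 1 mitosis promoter (5.26%), in 4 replication promoters (36.4%) and in 3.65% of promoters of genes tested. A match is a description of the sequence, not a site shown to be bound. Parts of 5 mitosis and 2 replication promoters that hold these letters are shown 5′ to 3′ on the gene's strand, ending before the first transcribed base of the annotation, with every match in capitals (TTCAAA and ATTGG are CHR and CCAAT letters read on the other strand).
Cdk1, chr10:69352913-69353052, minus strand: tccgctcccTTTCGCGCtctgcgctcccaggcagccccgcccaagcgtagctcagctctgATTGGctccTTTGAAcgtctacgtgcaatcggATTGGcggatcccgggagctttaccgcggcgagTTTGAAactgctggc
Kif11, chr19:37376312-37376381, plus strand: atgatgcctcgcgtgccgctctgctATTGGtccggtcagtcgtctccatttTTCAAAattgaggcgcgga
Cdc20, chr4:118437344-118437413, minus strand: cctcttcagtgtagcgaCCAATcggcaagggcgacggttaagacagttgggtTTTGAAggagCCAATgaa
Top2a, chr11:99024200-99024309, minus strand: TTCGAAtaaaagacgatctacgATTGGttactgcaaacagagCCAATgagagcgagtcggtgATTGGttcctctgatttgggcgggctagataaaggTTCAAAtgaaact
Ube2c, chr2:164769809-164769928, plus strand: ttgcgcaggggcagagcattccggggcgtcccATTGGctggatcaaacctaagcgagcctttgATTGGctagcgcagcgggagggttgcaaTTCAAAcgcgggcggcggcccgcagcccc
Mcm6, chr1:128359706-128359825, minus strand: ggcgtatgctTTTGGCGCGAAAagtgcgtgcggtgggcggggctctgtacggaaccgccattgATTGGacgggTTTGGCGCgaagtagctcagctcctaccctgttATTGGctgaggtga
Mcm5, chr8:75109349-75109467, plus strand: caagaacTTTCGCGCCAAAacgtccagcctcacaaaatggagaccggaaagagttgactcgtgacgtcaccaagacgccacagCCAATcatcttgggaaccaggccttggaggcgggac
Cdk1 is the 1 mitosis gene with E2F letters. Outside the members, the 689 genes tested with both CHR and CCAAT letters had a median anagen minus telogen difference of 0.14 (365 higher), the 396 with E2F letters one of 0.43 (249 higher) and all 11001 genes with a promoter one of 0.00 (5493 higher).

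Stretching the skin gave no member that passed the test. In the limma fit of expanded against unfilled skin with day as a block (4 arrays a side), 0 of the 36 genes and 0.0% of the 13653 genes tested passed a Benjamini-Hochberg adjusted p of 0.05. The lowest adjusted p of a member was 0.528, for Rrm2. At an unadjusted p under 0.05, Rrm2 was the only member (higher), while 4.83% of all genes were higher and 3.98% lower at that level. Of the mitosis genes, 15 of 23 had a higher mean in expanded skin, with a median log2 difference of 0.15, and of the replication genes 10 of 13 (0.27). Of all genes 7161 of 13653 did (0.02). For all 36 genes the values of the 4 expanded and the 4 unfilled arrays overlapped, as they did for all but 4.83% of the genes tested. Expanded skin was higher on all 4 days for Cdk1, Mcm6, Pcna and Rrm2, and on 3 of the days for 21 genes. The median over mitosis genes was -0.10 without day 7 and 0.45 without day 0, so its direction rests on single days.

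**Figure D2:**
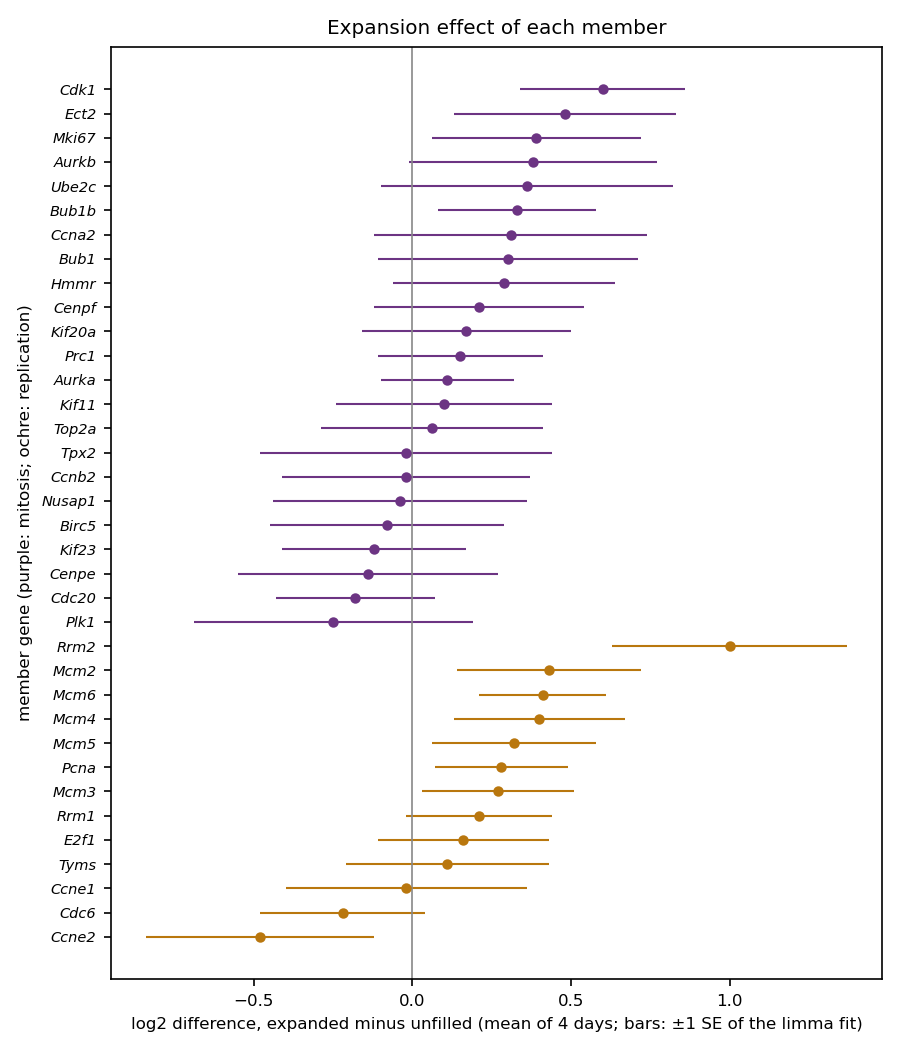
Each point is the log2 difference of expanded minus unfilled skin for 1 gene, as the mean of 4 days, and the bar is ±1 SE of the limma fit. The horizontal axis is in log2 units. Rrm2 lies at 1.00 and Ccne2 at -0.48, and no gene passed the adjusted test.

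Levels of single genes are given below for unfilled skin and then for expanded skin, each in the order day 0, day 7, day 14 and day 21. Mki67 (chr7:135689784-135716450), whose protein coats mitotic chromosomes and is the usual mark of dividing cells, read 12.33, 11.87, 11.83 and 10.82 in unfilled skin. In expanded skin it read 11.59, 12.88, 12.48 and 11.44, with 10.71 in telogen and 15.16 in anagen. It was lower in expanded skin on day 0 and higher on the 3 later days, with an expansion effect of 0.39 ± 0.33 (SE; adjusted p = 0.755). Top2a (chr11:98992947-99024199), the topoisomerase that untangles sister chromosomes, read 8.42, 7.57, 7.76 and 6.13 in unfilled and 7.54, 8.20, 7.35 and 7.01 in expanded skin. Telogen stood at 6.58 and anagen at 9.73. Unfilled day 21 was the lowest of its 10 arrays, below telogen, and its expansion effect was 0.06 ± 0.35 (adjusted p = 0.974).

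Among the mitotic cyclins and their kinase, Cdk1 (chr10:69335146-69352912) read 6.03, 5.55, 5.14 and 4.00 in unfilled and 6.10, 5.93, 6.34 and 4.76 in expanded skin. It stood at 3.46 in telogen and 8.11 in anagen. Expanded skin was higher on every day, least on day 0 (0.07) and most on day 14 (1.19), but 4 of its 10 values lay under the background median. Its expansion effect of 0.60 ± 0.26 was the largest of the mitosis genes and did not pass (adjusted p = 0.581). The cyclins showed smaller effects, 0.31 ± 0.43 for Ccna2 and -0.02 ± 0.39 for Ccnb2. Ccna2 (chr3) and Ccnb2 (chr9) were at least 2-fold lower in expanded skin on day 0 (-1.18 and -1.30), and Ccna2 was at least 2-fold higher on day 7 (1.42).

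The spindle checkpoint holds anaphase until all chromosomes are attached, and Cdc20 with Ube2c then starts the destruction of cyclin B. Cdc20 (chr4:118432901-118437343) read 5.11, 5.60, 5.54 and 5.0 in unfilled and 5.12, 5.91, 5.16 and 4.33 in expanded skin, 4.86 in telogen and 7.03 in anagen. All values but that of anagen lay between 4.33 and 5.91, and the expansion effect was -0.18 ± 0.25 (adjusted p = 0.85). Ube2c read 8.03, 6.35, 6.95 and 5.71 in unfilled and 7.13, 8.27, 7.58 and 5.51 in expanded skin. Its day 7 difference of 1.92 was the largest of any mitosis gene on that day, and its day 0 difference was -0.89. Bub1 was likewise lower on day 0 (-1.10) and higher on day 7 (1.48), whereas its relative Bub1b was higher on both days (0.51 and 0.82).

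Of the mitotic kinases, Plk1 (chr7:122159435-122169884) read 8.72, 7.98, 7.62 and 6.32 in unfilled and 6.76, 8.58, 7.93 and 6.35 in expanded skin, 5.32 in telogen and 10.26 in anagen. On day 0 its difference was -1.96, the widest of any member on that day, and on day 21 the arms were alike (0.03). Its expansion effect was the lowest of the mitosis genes, -0.25 ± 0.44 (adjusted p = 0.887). Birc5 (survivin), which carries Aurora B to the centromere, read 9.03, 7.75, 7.48 and 6.69 in unfilled and 7.65, 8.55, 7.72 and 6.73 in expanded skin. Telogen stood at 7.20 and anagen at 9.19, so unfilled skin on day 0 nearly reached the anagen value. Its expansion effect was -0.08 ± 0.37 (adjusted p = 0.968). The Aurora kinases had effects of 0.11 ± 0.21 (Aurka) and 0.38 ± 0.39 (Aurkb).

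Of the spindle genes, Cenpe, a kinetochore motor that carries chromosomes to the spindle equator, read 10.57, 8.89, 9.22 and 7.97 in unfilled and 8.87, 9.61, 9.43 and 8.20 in expanded skin. It stood at 7.91 in telogen and 11.40 in anagen. Unfilled day 0 was its highest expander array, and the expansion effect was -0.14 ± 0.41 (adjusted p = 0.939). The effects of the spindle motor Kif11, the spindle assembly factor Tpx2, Nusap1, Hmmr and the centromere protein Cenpf lay between -0.04 and 0.29. For cytokinesis, Ect2, which switches on the contractile ring, read 7.79, 7.09, 6.53 and 6.45 in unfilled and 7.16, 7.70, 7.98 and 6.94 in expanded skin, 6.63 in telogen and 9.90 in anagen. It was highest among expander arrays in expanded skin on day 14, where it exceeded unfilled skin by 1.45, and its effect was 0.48 ± 0.35 (adjusted p = 0.725). Kif20a, Kif23 and Prc1 had effects of 0.17 ± 0.33, -0.12 ± 0.29 and 0.15 ± 0.26.

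All 5 measured subunits of the MCM helicase had a higher mean in expanded skin, by 0.27 to 0.43, and none passed the test. Mcm2 (chr6:88883474-88898780) read 6.58, 7.33, 7.59 and 7.07 in unfilled and 7.57, 8.05, 7.98 and 6.68 in expanded skin, 6.41 in telogen and 10.10 in anagen. Unlike most mitosis genes it was lowest in unfilled skin on day 0, where expanded skin exceeded it by 0.99 (effect 0.43 ± 0.29, adjusted p = 0.702). Mcm5 read 6.55, 6.52, 6.62 and 5.50 in unfilled and 6.73, 7.54, 6.55 and 5.64 in expanded skin, 5.94 in telogen and 8.41 in anagen. Its day 21 arrays were the lowest of each arm, and below telogen (effect 0.32 ± 0.26, adjusted p = 0.75). Mcm6 read 10.75, 10.64, 10.78 and 9.55 in unfilled and 11.22, 11.05, 11.18 and 9.91 in expanded skin, 10.17 in telogen and 11.27 in anagen. Expanded skin was higher by 0.37 to 0.47 on each day, and day 21 stood apart below the 3 earlier days in both arms (effect 0.41 ± 0.20, adjusted p = 0.618).

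The sliding clamp Pcna read 14.43, 14.66, 14.83 and 14.38 in unfilled and 14.94, 15.00, 15.04 and 14.43 in expanded skin, 13.84 in telogen and 15.91 in anagen. It was higher in expanded skin on each day, by 0.51 on day 0 down to 0.05 on day 21 (effect 0.28 ± 0.21, adjusted p = 0.736). Rrm2 (chr12:24708254-24714146), the subunit of ribonucleotide reductase that is made in S phase, read 7.77, 8.05, 7.33 and 7.29 in unfilled and 8.20, 9.26, 9.51 and 7.45 in expanded skin. Telogen stood at 6.77 and anagen at 11.05. Expanded skin on days 0, 7 and 14 lay above every unfilled array, and day 21 alone did not, so the arms overlapped. Its day 14 difference of 2.19 was the largest of any member on any day. The expansion effect was 1.00 ± 0.37 with an unadjusted p of 0.0319 and an adjusted p of 0.528, and it was higher on 4 of 4 days. Its partner subunit Rrm1 had an effect of 0.21 ± 0.23. Tyms, which makes thymidylate, read 9.72, 8.47, 8.87 and 8.34 in unfilled and 8.75, 9.17, 9.12 and 8.81 in expanded skin, 8.92 in telogen and 9.75 in anagen. Unfilled skin on day 0 was at the anagen level (effect 0.11 ± 0.32, adjusted p = 0.937).

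The genes of S-phase entry include both cyclins E, which start replication with Cdk2. Ccne1 read 8.18, 7.23, 6.44 and 7.10 in unfilled and 7.06, 7.70, 7.46 and 6.64 in expanded skin, 6.88 in telogen and 8.23 in anagen. Ccne2, its paralogue, read 8.59, 7.64, 8.91 and 7.45 in unfilled and 7.48, 8.43, 8.29 and 6.47 in expanded skin, 7.87 in telogen and 8.40 in anagen. Both cyclins E were at least 2-fold lower in expanded skin on day 0 (-1.12 and -1.11), and Ccne2 was higher in expanded skin on day 7 alone. Their expansion effects were -0.02 ± 0.38 (adjusted p = 0.99) and -0.48 ± 0.36 (adjusted p = 0.728). Cdc6 read 6.05, 5.26, 4.67 and 5.67 in unfilled and 5.49, 5.58, 4.76 and 4.96 in expanded skin, 5.75 in telogen and 6.55 in anagen. E2f1 read 5.06, 4.99, 4.54 and 4.96 in unfilled and 5.37, 4.68, 5.42 and 4.74 in expanded skin, 3.86 in telogen and 5.24 in anagen. All 10 values of E2f1 and 4 of the 10 of Cdc6 lay under the background median, and their effects were 0.16 ± 0.27 and -0.22 ± 0.26.

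Day by day, mitosis genes were lower in expanded skin on day 0 and higher afterwards. On day 0, 18 of the 23 were lower, with a median difference of -0.89, and 9 were at least 2-fold lower (6.18% of all genes tested were). No member was at least 2-fold higher, as 9.49% of all genes were. Plk1 (-1.96), Tpx2 (-1.75), Cenpe (-1.70) and Nusap1 (-1.48) were farthest. Replication genes were split, 7 higher and 6 lower (median 0.18). On day 7, 21 of 23 mitosis genes were higher (median 0.82), 5 of them at least 2-fold, and 12 of 13 replication genes (0.69), 2 of them at least 2-fold, against 8.45% of all genes tested. On day 14 the counts were 19 of 23 (0.31) and 11 of 13 (0.34), with 2 of each at least 2-fold higher (11.4% of all genes). Of these, Cdk1 was under the background median in unfilled skin that day, and with such values raised to it 1 mitosis gene was. On day 21, 19 of 23 mitosis genes (0.23) and 6 of 13 replication genes (-0.10) were higher, and none differed 2-fold in either direction (6.69% of all genes were higher and 6.13% lower by that much). Medians over all genes tested lay between -0.06 and 0.05 on the 4 days. Each day has 1 array a side and no test.

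**Figure D3:**
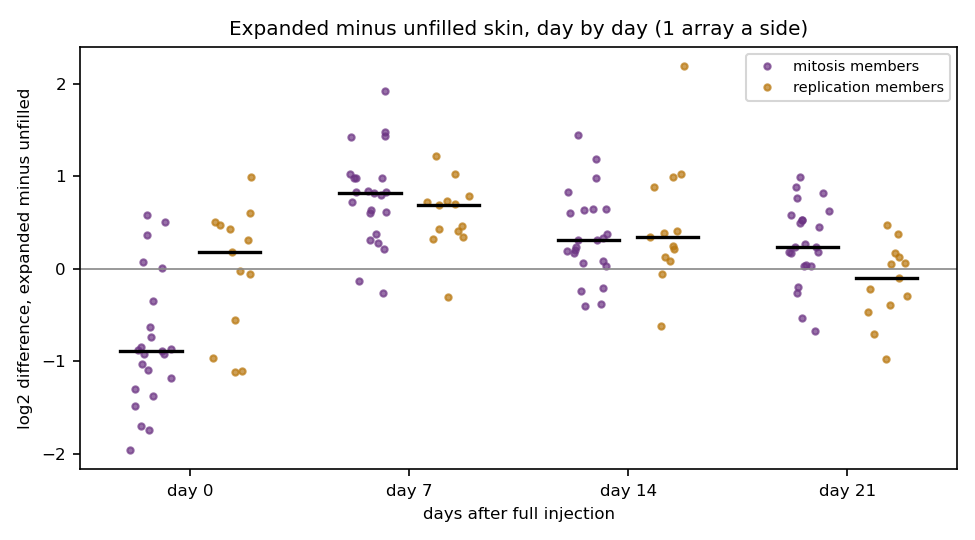
Each point is 1 gene, plotted as the log2 difference between the expanded and the unfilled array of the same day, and the black bar is the median of the group. Mitosis genes (left of each pair) have medians of -0.89, 0.82, 0.31 and 0.23 on days 0, 7, 14 and 21, and replication genes 0.18, 0.69, 0.34 and -0.10.

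Over time, day 21 was the low point of both arms. The mean over the 23 mitosis genes was 8.37, 7.62, 7.75 and 6.68 in unfilled skin and 7.57, 8.39, 8.10 and 6.96 in expanded skin. The arm means were 7.61 ± 0.70 and 7.76 ± 0.63 (SD, n = 4 days each). The mean over the 13 replication genes was 8.53, 8.28, 8.28 and 7.93 in unfilled (8.26 ± 0.25) and 8.51, 8.85, 8.76 and 7.78 in expanded skin (8.48 ± 0.49). Day 21 was the lowest unfilled array for 22 of 23 mitosis genes, 7 of 13 replication genes and 29 of all 36 members, against 24.5% of all genes tested. It was the lowest expanded array for 22 of 23, 10 of 13 and 32 of 36, against 29.6%. The high point of the mitosis genes differed between the arms: day 0 was the highest unfilled array for 19 of the 23 mitosis genes, and day 7 the highest expanded array for 17 of them (23.9% of all genes tested in each case). Of the 13 replication genes, the highest unfilled array was day 0 for 5 and day 14 for 6. Their highest expanded array was day 7 for 7 and day 14 for 5.

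**Figure D4:**
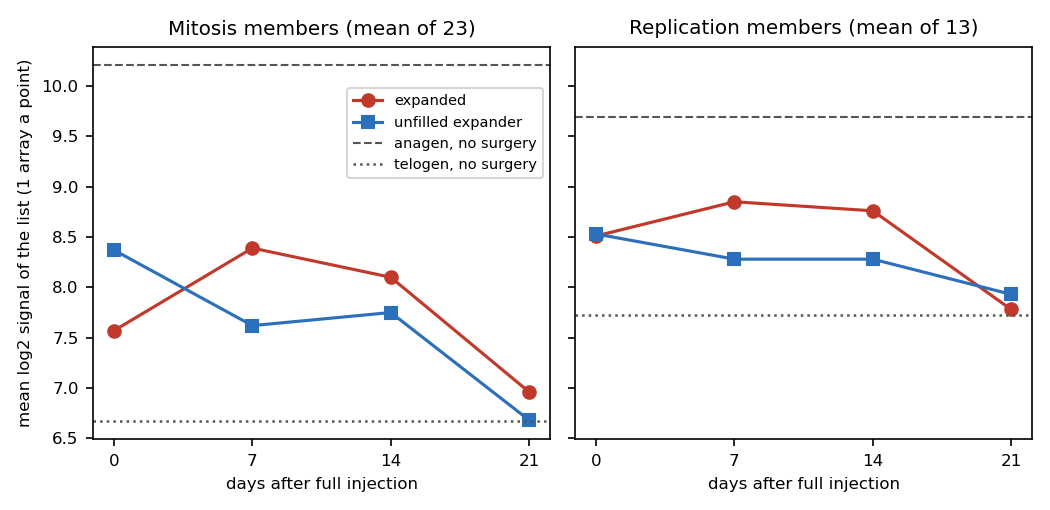
Mean log2 signal of the 23 mitosis genes (left) and the 13 replication genes (right) against days after full injection, 1 array a point. Dashed and dotted lines mark anagen and telogen skin without surgery. The unfilled line of the mitosis genes starts at 8.37 and ends at 6.68, and the expanded line peaks at 8.39 on day 7.

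Straight lines through the 4 days gave a negative slope for all 23 mitosis genes in unfilled skin, with a median change of -1.69 over 21 days. None passed the adjusted test (lowest adjusted p 0.991, 0.0% of all genes passing). At an unadjusted p under 0.05, no member was higher (1.98% of all genes were) and 10 of the 23 were lower, against 1.64% of all genes: Tpx2 (-2.28 ± 0.78), Plk1 (-2.26 ± 0.95), Cenpe (-2.24 ± 0.73), Birc5 (-2.19 ± 0.65), Top2a (-2.01 ± 0.61), Kif20a, Ccnb2, Cdk1, Hmmr and Ect2. Mitosis genes moved together and these slopes come from the same 4 arrays, so the 10 are not separate observations. In unfilled skin Cdk1 on days 14 and 21 (5.14 and 4.00) and Kif20a on day 21 (4.85) were under the background median. Replication genes had smaller slopes in unfilled skin, 11 of 13 negative with a median of -0.59. In expanded skin the medians were -0.66 for mitosis genes (23 of 23 negative) and -0.65 for replication genes (12 of 13). No member had an unadjusted p under 0.05 there, where 1.30% of all genes were lower and 1.18% higher at that level. The expanded slopes rested on the last day: without day 21 their medians were 0.95 and 0.57, and without day 0 they were -2.16 and -1.70. The unfilled mitosis median stayed between -2.03 and -1.13 whichever day was left out, whereas the replication median was 0.05 without day 21. The difference between the slopes was higher in expanded skin for 18 of 23 mitosis genes (median 1.07) and for 4 of 13 replication genes (-0.12). It passed for none (lowest adjusted p 0.999, and no member at an unadjusted p under 0.05 against 0.542% of all genes higher and 0.674% lower). Its mitosis median was -0.74 without day 0 and 2.08 without day 21.

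Set against skin without surgery, the mean of mitosis genes over each arm lay between telogen and anagen. In the fit of all 10 arrays, with telogen and anagen averaged, all 23 mitosis genes had lower means in unfilled skin (median -0.91) and in expanded skin (median -0.70), and 11 of 13 and 9 of 13 replication genes did (-0.32 and -0.30). No member passed in either comparison, where 0.0% and 0.476% of all genes did. At an unadjusted p under 0.05 no member differed in unfilled skin, where 9.42% of all genes were higher and 6.28% lower, and Cdc6 (-0.96 ± 0.43, adjusted p = 0.305) was lower in expanded skin, where 10.7% of all genes were higher and 5.69% lower. The 2 comparisons share the same reference arrays. That reference holds the difference between the telogen and the anagen array. Against telogen alone the medians were 0.85 (mitosis) and 0.68 (replication) in unfilled skin and 1.06 and 1.01 in expanded skin, so the direction turned. Against anagen alone they were -2.74 and -1.32, with 21 members and 2645 genes passing, and -2.45 and -1.06, with 15 members and 1850 genes passing. In those fits the reference is a single array, taken to vary like the other groups. All 23 mitosis genes lay below anagen on all 8 expander arrays. Above telogen lay 22, 23, 22 and 11 of the 23 in unfilled skin and 23, 23, 23 and 17 in expanded skin, with the fewest on day 21 in both arms. In unfilled skin the median difference of mitosis genes from telogen was 1.68 on day 0 and -0.04 on day 21.

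The markers of stressed and wounded epidermis followed the same arrays. Their mean over 8 genes was 12.28, 8.15, 7.68 and 7.61 in unfilled and 8.92, 14.46, 12.36 and 8.46 in expanded skin, with 6.56 in telogen and 8.79 in anagen. The 3 expander arrays with the highest mitosis mean were also the 3 highest here. Krt16, a keratin of hyperproliferative epidermis, read 12.96, 6.63, 6.78 and 5.99 in unfilled and 10.39, 16.16, 13.84 and 9.13 in expanded skin. S100a8, made by stressed keratinocytes and by neutrophils, read 14.49, 10.55, 7.73 and 9.64 in unfilled and 8.34, 16.51, 13.95 and 8.18 in expanded skin. On day 0, 7 of these 8 markers were lower in expanded skin (median -3.73), on day 7 all 8 were higher (6.29) and on day 14 all 8 (5.40), in the direction of the mitosis genes on each of the 3 days. Markers of differentiated epidermis had the same 3 highest expander arrays, with means of 14.57 in unfilled skin on day 0 and 14.76 and 14.71 in expanded skin on days 7 and 14 (the other 5 from 12.99 to 14.37). Of these 10 markers, 8 were lower in expanded skin on day 0 (median -0.71), 9 higher on day 7 (1.97) and 7 higher on day 14 (0.54). Hair matrix and hair shaft markers were also high in expanded skin on day 7 (13 of 13 above the unfilled array, where 8 were under the background median). Their median difference was 7.31, or 6.16 with values under background raised to it. On day 14, 10 of 13 were lower (-1.51, or -1.38 raised), where mitosis genes were higher. That day 4 were under the background median in expanded and 3 in unfilled skin. The unfilled array of day 14 was the high one of its arm. The mean over the 15 measured hair markers was 5.07, 4.81, 7.25 and 5.01 in unfilled and 4.94, 10.46, 5.66 and 6.21 in expanded skin. The mean of 1 of these 13 hair markers lay below the background median. Skeletal muscle fibre markers were lowest in the same expanded arrays (means 12.69 on day 7 and 13.05 on day 14, the other 6 expander arrays from 15.22 to 16.43). Macrophage markers had another order, highest in unfilled skin on days 7 and 21 (14.25 and 13.89). So did markers of basal epidermis, highest in expanded skin on days 21 and 14 (13.78 and 13.68). Of these 10 markers, 8 were higher in expanded skin on day 0 (median 0.40), where mitosis genes were lower. On days 7, 14 and 21, 8, 9 and 9 were higher (0.70, 0.61 and 0.87). In the fit of expansion 9 of 10 were higher (0.62), and none passed the adjusted test. The part of these cells in the cell cycle differences was not tested.

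**Figure D5:**
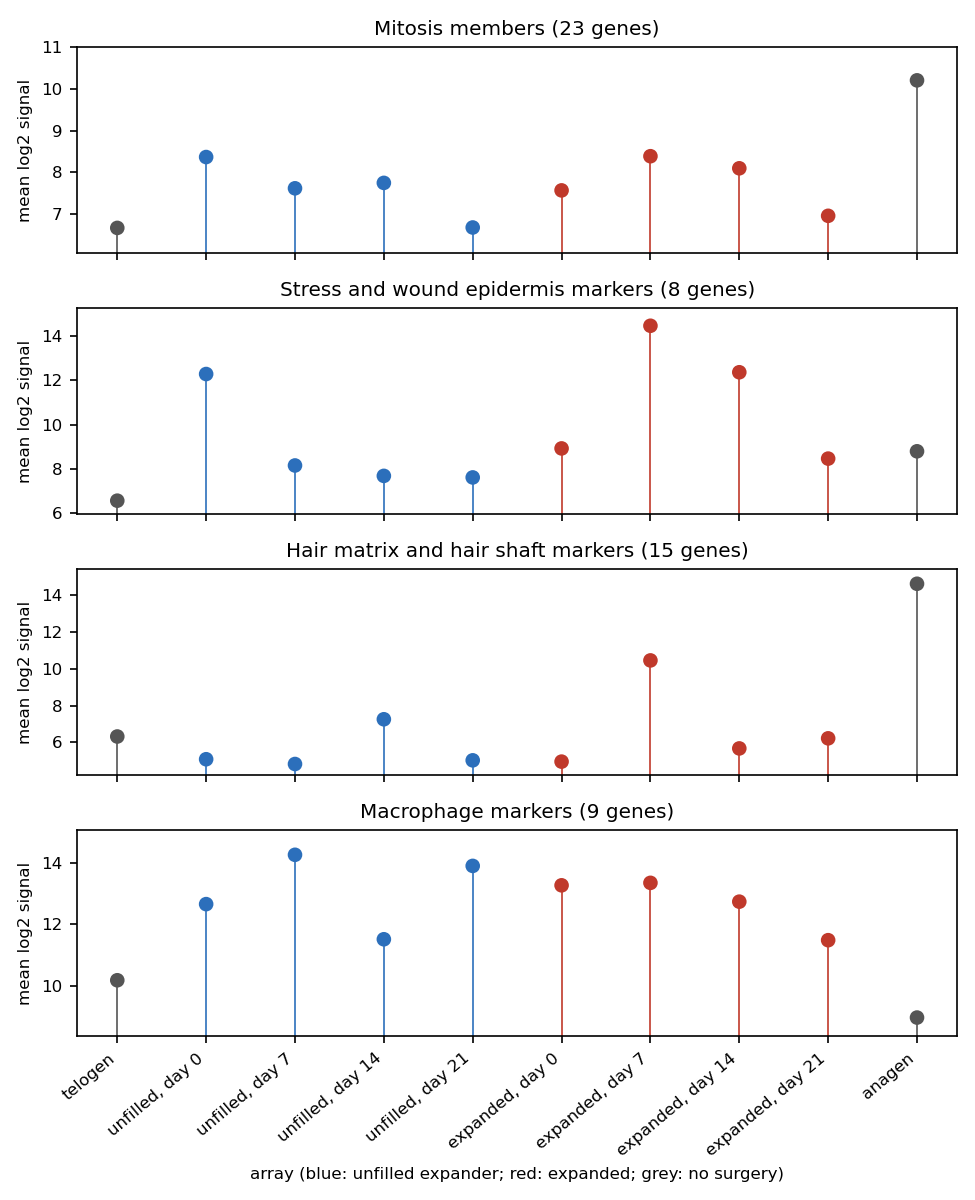
Mean log2 signal on each of the 10 arrays for the mitosis genes and for 3 marker lists, with blue for unfilled, red for expanded and grey for no surgery. Axes do not start at 0 because log2 signal has no natural zero. Unfilled day 0, expanded day 7 and expanded day 14 are the highest expander arrays in the top panel and in the panel of stress and wound markers.

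Other genes of the cycle were also mostly higher in anagen, and none passed the test of expansion. Of 46 other mitosis genes tested, 43 were higher in anagen (median 2.23), 38 of them at least 2-fold, against 23.5% of all genes tested. Of 34 other replication genes 29 were higher in anagen (1.24). Among G1 cyclins, kinases and E2F factors 14 of 16 were higher (1.53). CDK inhibitors, pocket proteins and quiescence genes, a list that also holds Lin9, Lin37, Lin52 and Lin54, were split, 12 of 19 higher (0.13). In expansion, 32 of the 46 other mitosis genes were higher (0.12), with Tacc3, a spindle protein under the background median on all unfilled arrays, at 0.55 ± 0.24 and the phosphatase Cdc25b at -0.58 ± 0.25. Of the other replication genes 23 of 34 were higher (0.08), with the histone chaperone subunit Chaf1b at 0.69 ± 0.22 and the licensing inhibitor Gmnn at -0.71 ± 0.31. Of G1 genes 11 of 16 were higher (0.13), with Myc at 1.03 ± 0.29 (adjusted p = 0.43), Cdk2 at 1.15 ± 0.37 and Cdk6 at 0.92 ± 0.37. Myc, a driver of cell growth, read 11.48, 11.54, 11.00 and 11.75 in unfilled and 12.16, 12.10, 12.95 and 12.65 in expanded skin. Its arms did not overlap, nor did those of Cdk2, Btg1 and Tacc3, as was so for 4.83% of all genes tested. For Tacc3 the highest unfilled value was 5.45 and the lowest expanded value 5.51, close to background. Of the CDK inhibitors, pocket proteins and quiescence genes 13 of 19 were higher (0.17). Among them were the antiproliferative genes Btg2 at 1.57 ± 0.46 and Btg1 at 1.06 ± 0.28 (adjusted p = 0.375, the lowest of these lists). Among CDK inhibitors Cdkn1a (p21) had 0.60 ± 0.30, Cdkn1b (p27) 0.00 ± 0.32 and Cdkn1c (p57) -0.12 ± 0.34, and Cdkn2a, between 2.56 and 5.13, was below the filter. Cdkn2b read 7.08, 6.44, 7.28 and 6.21 in unfilled and 7.01, 7.94, 7.77 and 7.52 in expanded skin. Cdkn2c read 8.55, 7.53, 9.6 and 8.0 in unfilled and 7.7, 8.07, 7.75 and 8.1 in expanded skin. Cdkn2d read 7.03, 7.28, 5.48 and 6.24 in unfilled and 6.83, 7.04, 6.66 and 7.0 in expanded skin. Ccnd1 and Foxm1 were not among the named probe sets.

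Genes that were not members and whose levels were most like the mitosis mean over the 10 arrays were the histone genes H1f5 (Pearson's r = 0.979) and H2bc12 (0.974), and Ckap2 (0.978), Pus10, Bora, Shcbp1, Paqr3, H2bc13, Kif15 and Usp38. Over the 8 expander arrays they were mostly core histone genes, led by H2ac20 (0.986). Histone genes have near-identical copies whose RNA probe sets may share, so they are not separate measurements. Closest to the replication mean over the 10 arrays were E2f8 (0.970), Cenpm (0.968) and Pclaf (0.966), then Rars, Fads3, Atp6v1g1, Smc2, Dera, Nup205 and H2ax. Over the 8 expander arrays they were led by Mea1 (0.986), Sin3b (0.980) and Cib1 (0.975). Of the 10 closest to the mitosis mean, 1 was shared between the 2 sets of arrays, and likewise 1 of the 10 closest to the replication mean. Over the 10 arrays, the 10 closest genes of the mitosis group and the 10 of the replication group had 0 genes in common.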

How the data were processed

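Signals of 28846 probe sets on 10 arrays (Affymetrix WT PLUS labelling, per the labels' protocols) were deposited by the authors as 1 processed table and read as log2 values. The log base, background correction, summarisation and normalization are not given in the sources used here. The submitters' processing notes name mm10. Symbols came from the platform annotation (19572 probe sets with 1 symbol, all matched to RefSeq), and the probe set with the highest mean stood for a gene. Genes with a mean under the 30th percentile (4.86) were left out, leaving 13653. Differences were fitted with limma 3.58.1 in R 4.3.3 over all of these, two-sided, with Benjamini-Hochberg adjustment at 0.05, and residual degrees of freedom of 3 (expansion, day as block), 4 (slopes, given as the change over 21 days) and 7 (against no surgery). Fits were run on simulated data with planted changes of 4 log2 units up or down. These exceed the expansion effect of every member, and smaller changes were not simulated. Comparisons of 1 array a side have no test and are counted from 2-fold. The small number of arrays limits the precision. The members and lists were chosen with earlier results of these data known. Values in every array are given for genes named by function and for the 3 highest and 3 lowest expansion effects of each group, and for other lists the genes with the smallest p. Same-day arrays are paired by the labels. Their deviations from the arm means correlated across genes at -0.133, -0.171, -0.104 and 0.358 on days 0, 7, 14 and 21, so the pairing rests on the labels.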

Additional observations from a re-analysis of the deposited data

Results flagged for a closer look

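In 5 of the 76 groups of 4 arrays checked, the lowest array stood far below the other 3, by Dixon's criterion, which chance meets in about 1 of 20 groups. All 5 were arrays of day 21. They were Aurka (5.19) and Mcm5 (5.50) in unfilled skin, Mcm6 in unfilled (9.55) and in expanded skin (9.91), and Pcna in expanded skin (14.43). The 4 arrays of an arm lie on different days, so a low day 21 array is also the end of the time course.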

How the results depend on the processing

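Fits were repeated with the other level filters, quantile normalization, array median centring, probe set averages and a trended prior. Medians of mitosis and replication genes then moved by less than the median limma SE over the genes of the group. No member passed the test of expansion or of a slope under any alternative. Genes passing for expansion numbered 0, but 2 with no replicate block and 1 without day 0 (0 to 1 over the days left out). With days left out, slope medians ran from -0.66 to 0.05 (unfilled, replication), from -2.16 to 0.95 and -1.70 to 0.57 (expanded, mitosis and replication), and from -0.74 to 2.08 and -1.23 to 0.73 (difference). Against no surgery, genes passing ran from 0 to 2645 (unfilled; 112 without unfilled day 14, 2645 without telogen) and from 5 to 1850 (expanded; 65 with all arrays, 33 with no filter, 8, 43 and 5 without expanded days 0, 7 and 14, 1850 without telogen). Members passing ran from 0 to 21 and from 0 to 15, both highest without telogen. The unfilled medians ran from -2.74 to 0.85 (mitosis) and -1.32 to 0.68 (replication), the expanded ones from -2.45 to 1.06 and -1.06 to 1.01, lowest without telogen and highest without anagen. At 1.5-fold in place of 2-fold, 17 mitosis genes were lower and 2 replication genes higher on day 0, 17 and 7 were higher on day 7, 8 and 4 higher and 1 replication gene lower on day 14, and on day 21 5 mitosis genes were higher, 1 lower and 2 replication genes lower. Array median centring gave 8 mitosis genes 2-fold higher on day 7 and 1 replication gene lower on day 21. Quantile normalization gave 1 replication gene higher on day 14, and 1 mitosis gene higher and 1 replication gene lower on day 21. The shares of all genes tested at 1.5-fold and under these normalizations are not given here. The counts at these settings are therefore not read as results about the members. Raising values under the background median to it left 1 mitosis gene 2-fold higher on day 14. This setting and the correlations over the 8 expander arrays were added after the data were seen. The cause of these shifts was not tested.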

Other observations

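Division genes outside the 38 were also compared by day. Of 46 other mitosis genes tested, such as kinetochore and condensin subunits, 36 were lower in expanded than in unfilled skin on day 0 (median -0.48, 10 at least 2-fold) and 41 higher on day 7 (0.56, 10 at least 2-fold). Of 34 other replication genes, 24 were lower on day 0 (-0.20, 2 at least 2-fold) and 24 higher on day 7 (0.28, 4 at least 2-fold). Of all genes tested, 6.18% were at least 2-fold lower on day 0 and 8.45% at least 2-fold higher on day 7. The 2-fold counts of the other replication genes lie near those shares. In unfilled skin, 41 of the 46 and 29 of the 34 had a negative slope (medians -0.83 and -0.65 over 21 days), and in expanded skin 38 and 29 (-0.38 and -0.49). None passed the adjusted limma test. At an unadjusted p under 0.05 in unfilled skin, 6 other mitosis and 5 other replication genes were lower, against 1.64% of all genes. Their slopes come from the same 4 arrays, so they are not separate observations. Of 19 CDK inhibitors, pocket proteins and quiescence genes, 13 had a negative slope in unfilled skin (median -0.42) and 9 in expanded skin (0.03). On day 0, 10 of these were lower in expanded skin (-0.07), and on day 7, 11 were higher (0.31). No difference between the lists was tested.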
